A study of Mus musculus with 8 samples.

Results

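The 10 genes described here are regulators of the Hippo pathway and of the trophectoderm, the outer cell layer of the blastocyst that forms the placenta. They were taken by name from a fixed set of symbols (Yap1, Wwtr1, Tead1, Tead2, Tead4, Lats2, Amotl2, Tfap2c, Gata3 and Cdx2), and all 10 were found among the 37310 genes of the deposited table by Ensembl identifier. Of these, 6 had 1 FPKM or more in 4 or more libraries, of 8, and were tested. FPKM counts fragments relative to transcript length in kilobases and to the mapped fragments of the library. The libraries held polyadenylated RNA of mouse 2-cell embryos, 4 from embryos cultured in G1 medium with 6 µM triclocarban, an antibacterial compound of personal care products, and 4 from control embryos cultured in G1 medium with the solvent DMSO. The mouse strain, the hour of collection, the number of embryos per library and the independence of the cultures are not given in the labels, so p-values reflect the spread among these libraries only, and that spread may be technical. The comparison addresses whether the compound disturbs the passage from maternal to embryonic transcripts, as the title of the series states.

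In the Hippo pathway, a kinase cascade that ends in LATS1 and LATS2 phosphorylates the coactivators YAP1 and WWTR1 (TAZ) and keeps them out of the nucleus. When the cascade is quiet, the coactivators bind DNA through the TEAD transcription factors. In the mouse embryo this switch operates after compaction, when polarised outer cells have nuclear YAP1, and TEAD4 there activates Cdx2 and Gata3, which specify trophectoderm. Yap1 RNA is stored in the mouse oocyte, whereas Cdx2 is transcribed only at later cleavage stages.

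With triclocarban, the transcripts of the coactivator gene Wwtr1, of the TEAD genes Tead4 and Tead2 and of the trophectoderm factor gene Tfap2c fell, and that of Gata3 rose. Yap1, by far the most abundant of the 10, did not pass the threshold. Cdx2 and Amotl2 were close to 0 in both groups, and Tead1 and Lats2 were below the filter on low values. Of the 6 tested genes, 1 was therefore higher and 4 were lower (limma, Benjamini-Hochberg adjusted p under 0.05 over the 12941 genes tested). Of all genes tested, 11.3% were higher and 30.8% lower, together 42.1%. Wwtr1 and Tead4 passed the filter through the 4 controls alone, so that they had to differ, and Gata3 passed through the 4 triclocarban libraries and control 1. The counts are therefore no support for a common behaviour of the set. Changes are given as triclocarban minus control in log2(FPKM + 1), a scale that compresses the changes of low genes, and the median of all genes tested was -0.19. Because FPKM is relative to the rest of the library, less of a transcript and more of the others cannot be told apart, nor can fewer cells that hold it and less of it per cell.

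The libraries were not alike within groups. The estimated depth was 6900000 to 13600000 fragments in the triclocarban libraries and 11300000 to 14800000 in the controls. Genes with at least 1 FPKM numbered 11788 to 11957 with triclocarban and 12828 to 13541 in controls. On the first principal component, which held 69.1% of the variance, controls 1 and 2 lay at 27.8 and 36.5 and controls 3 and 4 at 102 and 97.8, with the triclocarban libraries between -69.6 and -62.7. Triclocarban library 2 had the lowest estimated depth and stood apart on the second component. Its long transcripts were higher and its short ones lower than in the other 3 triclocarban libraries: the median log2 difference was 0.18 in the third of tested genes with the longest exon sequence (5317 bases or more) and -0.42 in the third with the shortest (2567 bases or less).

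The label of the samples was checked against markers. The 6 markers of the 2-cell embryo found in the table, among them Zscan4d and Zfp352, reached 1 FPKM, and the list, mostly the maternal transcript Dppa3 that oocytes also hold, summed to 3626 to 6153 FPKM with triclocarban and to 2237 to 3858 in controls. Within it, Zfp352 had 47.8 to 139 FPKM with triclocarban and 194 to 250.6 FPKM in controls. Eif1a had 3.47 to 8.01 FPKM with triclocarban and 29.9 to 67.0 FPKM in controls. Both lay below every control in all 4 triclocarban libraries, against the direction of the sum. Zscan4c had 110, 33.8, 130 and 116 FPKM in triclocarban libraries 1 to 4 and 23.9 to 50.4 FPKM in controls. Zscan4d had 174, 56.1, 183 and 137 FPKM there and 55.8 to 135 FPKM in controls. Zscan4c and Zscan4d thus lay above every control in triclocarban libraries 1, 3 and 4. The groups of Usp17lc overlapped. The 8 oocyte markers summed to 4774 to 7622 FPKM with triclocarban and 1382 to 4250 FPKM in controls. Against that sum, Zp3 had 12.5 to 33.9 FPKM with triclocarban and 49.0 to 60.8 FPKM in controls. Of 10 markers of cumulus and granulosa cells, which surround the egg, 3 reached 1 FPKM in any library (Cyp19a1, Fshr and Tnfaip6). Their list summed to 9.37 to 18.2 FPKM with triclocarban and 5.07 to 9.503 in controls, with Amh listed at 0 everywhere and Foxl2 at no more than 0.13. Tnfaip6 went against that sum, at 0.23 to 0.49 FPKM with triclocarban and 1.53 to 5.01 FPKM in controls. So did Star, at 0.13 to 0.38 FPKM with triclocarban and 0.41 to 0.62 FPKM in controls. Of 5 sperm markers 1, Prm2, reached 1 FPKM, and the list summed to 7.04 to 9.32 FPKM with triclocarban and 1.12 to 5.23 in controls. Of 5 blood cell markers 3 reached 1 FPKM and the list, mostly Hba-a1, summed to 7.01 to 33.02 FPKM with triclocarban and 43.7 to 71.8 FPKM in controls, with Hbb-bs listed at 0. Lyz2 had 0.55, 0, 4.51 and 5.01 FPKM in triclocarban libraries 1 to 4 and 0.52 to 1.09 FPKM in controls. In libraries 3 and 4 it thus went against that sum. The part of these shifts in the results below was not tested.

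**Figure D1:**
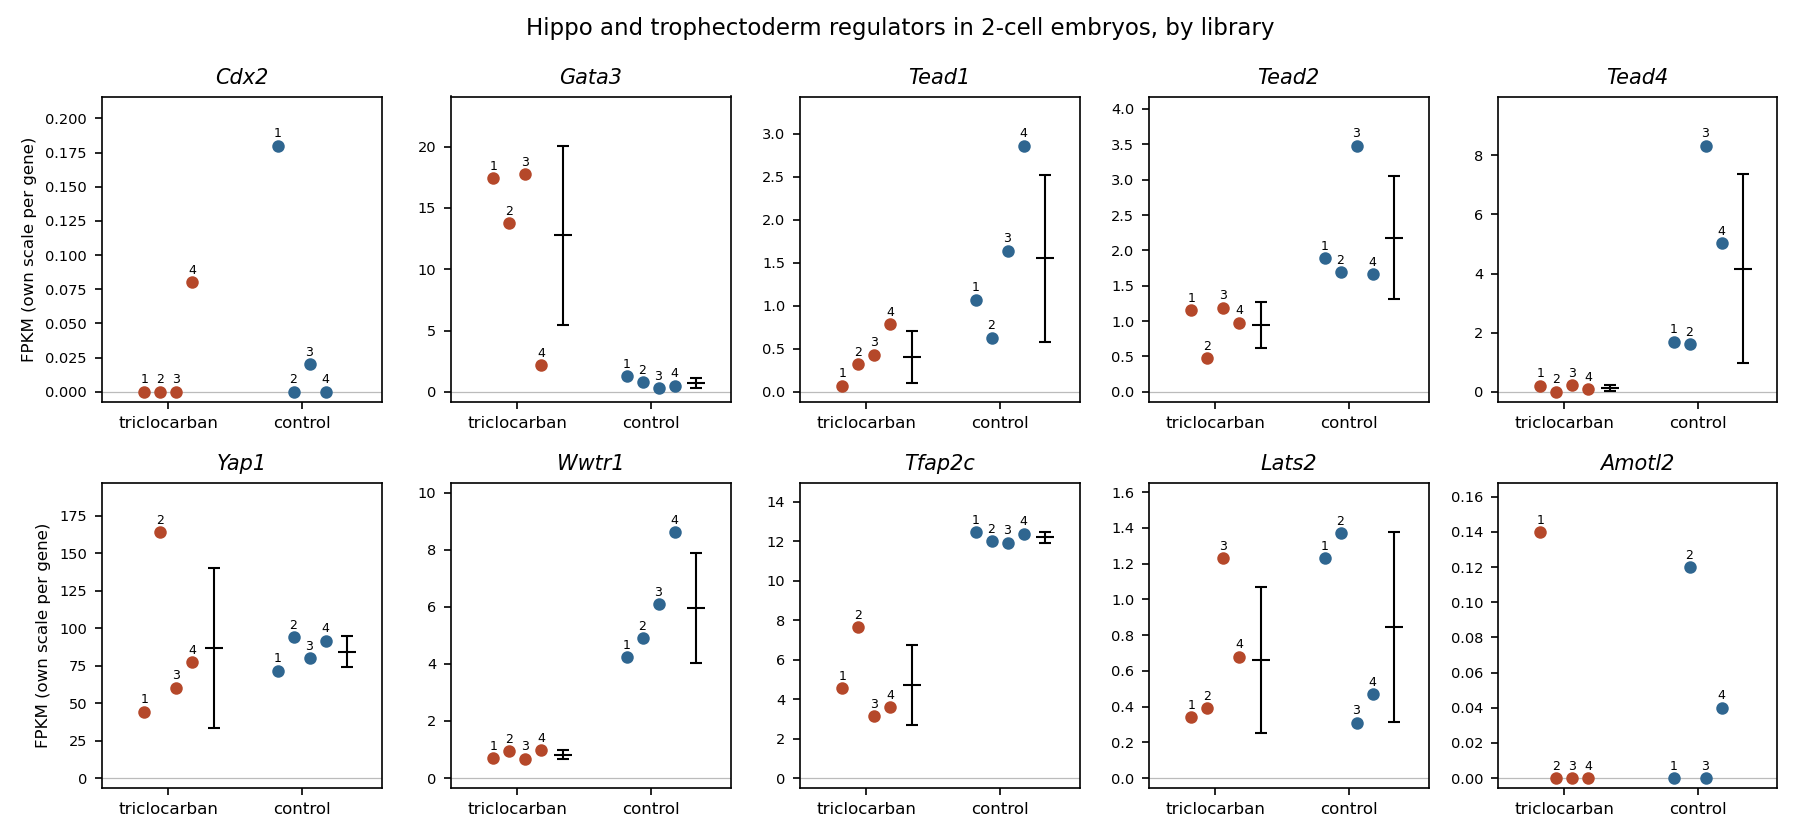
FPKM of the 10 genes in each library, with triclocarban on the left and control on the right of each panel; numbers are library numbers, and black bars give the mean and SD of 4 libraries, left out for Cdx2 and Amotl2, which were listed at 0 in 5 of 8 libraries. The y axis differs between genes. The groups do not overlap for Gata3, Tead2, Tead4, Wwtr1 and Tfap2c.

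Yap1 encodes the coactivator YAP1 (ENSMUSG00000053110.7, GRCm38 chromosome 9, 7931999 to 8004596, minus strand). Its level was 44.4, 164, 60.3 and 77.2 FPKM in triclocarban libraries 1 to 4 and 71.7, 93.9, 79.8 and 91.6 FPKM in controls 1 to 4. Triclocarban library 2 was higher than every control, library 1 and library 3 were lower than every control, and the groups overlapped. The mean was 86.5 ± 53.4 FPKM with triclocarban and 84.3 ± 10.4 FPKM in controls (SD, n = 4 each), and the log2 change of -0.13 had a 95% interval of -0.93 to 0.66 (limma adjusted p = 0.801). The interval leaves room for changes of either sign. The change was -0.49 without triclocarban library 2 (limma adjusted p = 0.118), 0.13 without library 1 and 0.17 with median-of-ratios scaling. The exons of Yap1 span 9257 bases, which puts it in the length class that is high in library 2, and the part of that shift was not tested.

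Wwtr1 encodes TAZ, the paralogue of YAP1 (ENSMUSG00000027803.8, chromosome 3, 57455649 to 57575910, minus strand). It had 0.70, 0.94, 0.68 and 0.98 FPKM in triclocarban libraries 1 to 4, against 4.23, 4.90, 6.09 and 8.62 FPKM in controls 1 to 4. All 4 triclocarban libraries lay below all 4 controls, as was the case for 30.0% of genes tested. The mean was 0.82 ± 0.16 FPKM with triclocarban and 5.96 ± 1.93 FPKM in controls (SD, n = 4 each). The log2 change was -1.90 (SE 0.25, limma adjusted p = 0.000187), and -2.68 with a pseudocount of 0.1 in place of 1. Wwtr1 reached 1 FPKM in the 4 controls alone, so this p is no independent support. Gm16016, a pseudogene that overlaps Wwtr1 on the opposite strand, reached up to 0.97 FPKM over the 8 libraries. Its part in the Wwtr1 values was not tested.

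The share of Wwtr1 in the pair is taken within a library and does not depend on how that library was scaled. The log2 ratio tested below has 1 FPKM added to each gene and so does depend on it in part. Wwtr1 made up 1.55, 0.57, 1.11 and 1.25% of the summed FPKM of both genes in triclocarban libraries 1 to 4 and 5.57, 4.96, 7.09 and 8.60% in controls 1 to 4. Yap1 was thus 63.5 to 175 times as abundant per length as Wwtr1 with triclocarban and 10.6 to 19.2 times in controls. The mean log2 ratio of Wwtr1 to Yap1, with 1 FPKM added to each, was -5.41 ± 0.71 with triclocarban and -3.65 ± 0.32 in controls (SD, n = 4 each). It differed by -1.77 (two-sided exact permutation over 70 assignments, p = 0.0286, the lowest attainable). The p was equal after Benjamini-Hochberg adjustment over the 2 within-library ratios tested. Wwtr1 passed the filter through the 4 controls alone, so this p is drawn from a gene that had to differ and is no independent support. With controls 1 and 2 left out it was -2.02, and with controls 3 and 4 left out -1.51.

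The promoters of both genes are shown because they carry the pathway's own recognition letters. They are the 300 bases around the transcription start from RefSeq (GRCm38.p6), written 5′ to 3′ on the strand of the gene, with matches to GGAATG, the core of the TEAD recognition element, in capitals.
Wwtr1: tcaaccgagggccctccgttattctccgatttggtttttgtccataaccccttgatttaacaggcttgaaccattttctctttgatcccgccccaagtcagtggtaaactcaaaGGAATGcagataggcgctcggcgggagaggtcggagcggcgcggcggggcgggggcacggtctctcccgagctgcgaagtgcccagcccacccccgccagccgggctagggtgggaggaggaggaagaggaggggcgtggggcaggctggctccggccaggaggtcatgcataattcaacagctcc
Yap1: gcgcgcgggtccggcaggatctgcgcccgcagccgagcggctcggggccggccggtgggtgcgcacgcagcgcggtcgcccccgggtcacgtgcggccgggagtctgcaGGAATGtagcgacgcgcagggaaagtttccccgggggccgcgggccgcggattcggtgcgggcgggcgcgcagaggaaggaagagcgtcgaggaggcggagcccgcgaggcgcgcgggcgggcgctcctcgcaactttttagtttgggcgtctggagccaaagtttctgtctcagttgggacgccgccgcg
The Wwtr1 window is chr3:57575861-57576160 on the minus strand and the Yap1 window chr9:8004547-8004846 on the minus strand. Each holds 1 match, on the strand of the gene, at base 115 of the Wwtr1 window and base 110 of the Yap1 window, counted from 1 at the 5′ end. Searched on both strands, GGAATG was found in 14.7% of 32851 promoter windows of this length. Of the 7 members with a promoter in the table, 4 held it in at least 1 window, Lats2 and Amotl2 being the others. A further window of Wwtr1 overlaps the one shown and holds the same match, and a further window of Lats2 holds none. The count of members is thus not on the same footing as the share of windows. A match is only a run of letters. Wwtr1 fell and Yap1 did not pass the threshold, and both windows hold it.

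**Figure D2:**
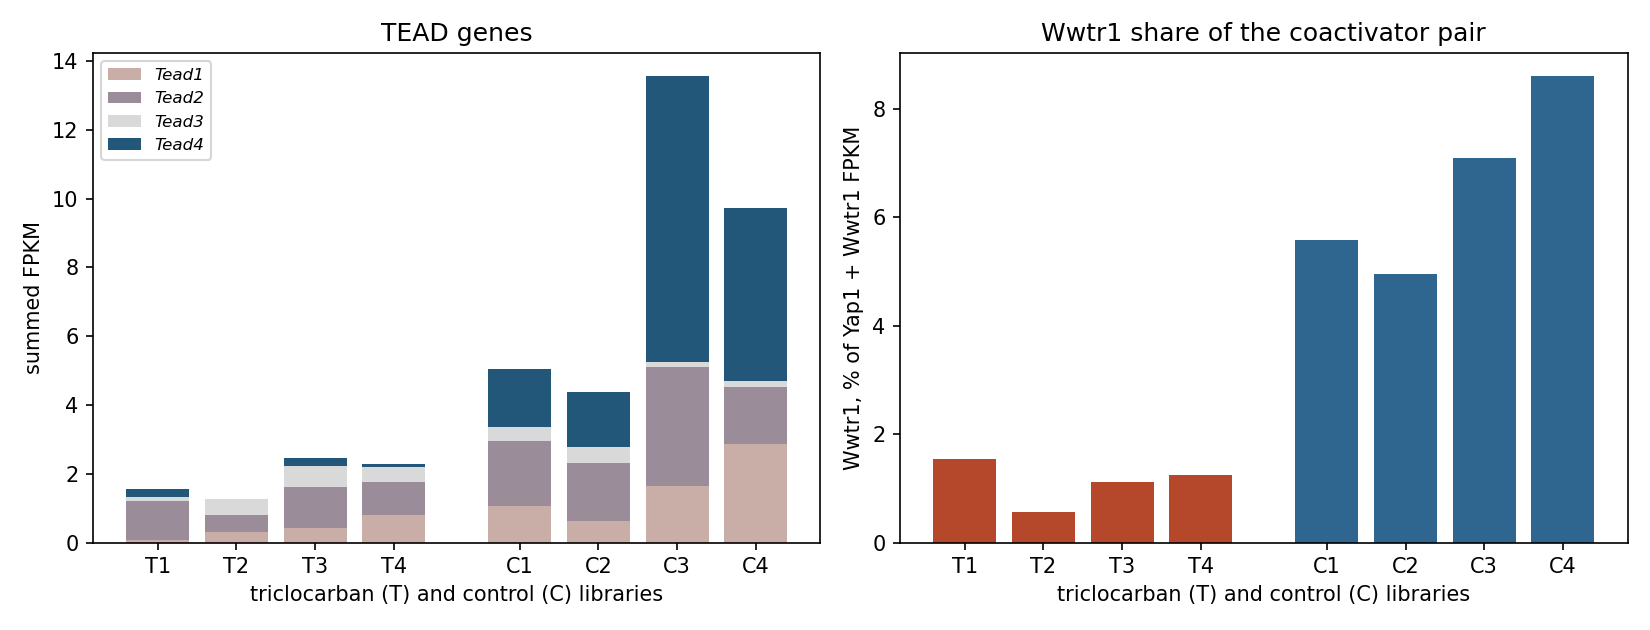
Left, FPKM of the 4 TEAD genes stacked per library; right, Wwtr1 as a percentage of the summed FPKM of Yap1 and Wwtr1. T1 to T4 are triclocarban libraries and C1 to C4 controls. Tead4 is the largest block in C3 and C4 and close to absent in T1 to T4, and the Wwtr1 share is at most 1.55% in T1 to T4 and at least 4.96% in C1 to C4.

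The TEAD genes encode the DNA-binding partners of both coactivators. Tead4, the member that is required for trophectoderm in the mouse (ENSMUSG00000030353.9, chromosome 6, 128224288 to 128300823, minus strand), had 0.21, 0, 0.23 and 0.08 FPKM in triclocarban libraries 1 to 4, against 1.70, 1.62, 8.32 and 5.02 FPKM in controls 1 to 4. The groups did not overlap, and controls 1 and 2 were well below controls 3 and 4. The log2 change was -1.99 (SE 0.38, limma adjusted p = 0.00152). Its size depended on the pseudocount and on the controls. It was -4.04 with a pseudocount of 0.1 and -0.77 with 5, -2.73 without controls 1 and 2 and -1.24 without controls 3 and 4. The limma adjusted p was at most 0.0118 in these and the other alternatives. Tead4 reached 1 FPKM in the 4 controls alone, so it had to differ to be tested, and these p-values are no independent support.

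Tead2, which encodes another TEAD factor (ENSMUSG00000030796.8, chromosome 7, 45215753 to 45233644, plus strand), had 1.15, 0.48, 1.19 and 0.98 FPKM in triclocarban libraries 1 to 4 and 1.89, 1.69, 3.48 and 1.66 FPKM in controls 1 to 4. The groups did not overlap, but the gap between them was narrow. The log2 change of -0.69 (SE 0.25) passed the threshold at a limma adjusted p of 0.0419. It missed the threshold in 13 of 20 alternatives, among them the fit without a filter (limma adjusted p = 0.104), median-of-ratios scaling (0.116) and each fit that left out 1 triclocarban library (0.0618 to 0.0835). It also missed the threshold without control 1, control 3 or control 4 (0.0510 to 0.115). Cd37, which overlaps Tead2 on the opposite strand, reached up to 0.76 FPKM over the 8 libraries. Its part in the Tead2 values was not tested.

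Tead1 (ENSMUSG00000055320.8, chromosome 7, 112679318 to 112906807, plus strand) encodes a broadly expressed TEAD factor. It had 0.07, 0.32, 0.43 and 0.79 FPKM in triclocarban libraries 1 to 4 and 1.07, 0.63, 1.64 and 2.86 FPKM in controls 1 to 4. Triclocarban library 4 lay above control 2, and the other triclocarban libraries lay below every control. It was below the filter. In the fit without a filter, over 28046 genes, its log2 change was -0.82 (SE 0.29, limma adjusted p = 0.0905).

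Summed over Tead1 to Tead4, the level was 1.27 to 2.46 FPKM with triclocarban and 4.38 to 13.6 FPKM in controls. Tead4 took 14.5, 0, 12.7 and 4.28% of the sum of Tead1, Tead2 and Tead4 in triclocarban libraries 1 to 4 and 36.5, 41.1, 61.9 and 52.6% in controls 1 to 4. The mean share was 7.86 ± 6.87% with triclocarban and 48.0 ± 11.5% in controls (SD, n = 4 each). The difference was -40.2 percentage points (exact two-sided permutation p = 0.0286, the smallest possible). Tead4 passed the filter through the 4 controls alone, so this p too is drawn from a gene that had to differ and is no independent support. Tead2 was the highest TEAD gene in all 4 triclocarban libraries and in controls 1 and 2, and Tead4 in controls 3 and 4. Yap1 was 24.5 to 129 times the TEAD sum with triclocarban and 5.89 to 21.4 times in controls.

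Lats2 and Amotl2 act upstream of the coactivators. Lats2, one of the kinases that inactivate YAP1 and TAZ (ENSMUSG00000021959.9, chromosome 14, 57689662 to 57758388, minus strand), had 0.34, 0.39, 1.23 and 0.68 FPKM in triclocarban libraries 1 to 4 and 1.23, 1.37, 0.31 and 0.47 FPKM in controls 1 to 4. The groups overlapped over their whole range, with controls 1 and 2 above controls 3 and 4 (log2 change -0.14, limma adjusted p = 0.746 without a filter). Amotl2, an angiomotin that holds YAP1 at junctions (ENSMUSG00000032531.8, chromosome 9, 102716672 to 102733418, plus strand), was listed at 0 in 5 of 8 libraries and did not exceed 0.14 FPKM in triclocarban library 1 and 0.12 FPKM in control 2.

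Tfap2c encodes the transcription factor AP-2γ, which acts in trophoblast and, with TEAD4, in the polarisation of the mouse embryo (ENSMUSG00000028640.5, chromosome 2, 172549593 to 172558622, plus strand). It had 4.54, 7.64, 3.15 and 3.58 FPKM in triclocarban libraries 1 to 4, against 12.5, 12.02, 11.9 and 12.4 FPKM in controls 1 to 4. The 4 controls were nearly equal, also between the pairs that differed for Tead4, and the highest triclocarban library was library 2. The mean was 4.73 ± 2.02 FPKM with triclocarban and 12.2 ± 0.26 FPKM in controls (SD, n = 4 each), which is a change in log2 of -1.26 (SE 0.28, limma adjusted p = 0.00363). It was -1.48 without triclocarban library 2.

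Gata3, a GATA-family factor that acts in trophectoderm alongside CDX2 (ENSMUSG00000015619.9, chromosome 2, 9857078 to 9890034, minus strand), went the other way. It had 17.4, 13.8, 17.8 and 2.17 FPKM in triclocarban libraries 1 to 4, against 1.29, 0.80, 0.30 and 0.50 FPKM in controls 1 to 4. The groups did not overlap, with triclocarban above control, as was the case for 10.2% of genes tested. Triclocarban library 4 was far below the other 3 and close to control 1. The mean was 12.8 ± 7.30 FPKM with triclocarban and 0.72 ± 0.43 FPKM in controls (SD, n = 4 each). The log2 change was 2.74 (SE 0.51, limma adjusted p = 0.00133), and 3.35 without triclocarban library 4. With a pseudocount of 0.1 it was 3.75 and with 5 it was 1.503. Of the 3 annotated genes that overlap Gata3, 2 on the opposite strand were listed at 0 in every library and 1 on the same strand reached 0.24 FPKM.

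The Gata3 promoter is shown because Gata3 was the member that rose; its window is chr2:9878551-9878850 on the minus strand (RefSeq, GRCm38.p6).
Gata3: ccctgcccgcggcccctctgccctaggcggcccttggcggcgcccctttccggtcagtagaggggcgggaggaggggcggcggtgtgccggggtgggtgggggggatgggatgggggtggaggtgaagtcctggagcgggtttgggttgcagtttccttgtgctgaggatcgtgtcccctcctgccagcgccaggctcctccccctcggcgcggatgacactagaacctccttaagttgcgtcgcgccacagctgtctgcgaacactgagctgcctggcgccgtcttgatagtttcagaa
It holds no GGAATG. It also lacks AGATAA, which is recognised by factors of the family of GATA3 and was found on either strand in 11.2% of all windows, so no base is in capitals. It holds 2 GC boxes, GGGCGG, which 35.7% of windows hold. The G and C content was 67.3% with 22 CpG sites for Gata3, 61.7% with 20 for Wwtr1 and 74.0% with 49 for Yap1, where the median of all windows was 52.7% with 7 sites. The absence of a match says only that these letters are not in this window.

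Cdx2, the homeobox factor of trophectoderm (ENSMUSG00000029646.3, chromosome 5, 147300805 to 147307270, minus strand), was listed at 0 in triclocarban libraries 1 to 3 and at 0.08 FPKM in library 4. In controls it was at 0.18, 0, 0.02 and 0 FPKM. By the estimated depths, 1 fragment of Cdx2 is worth 0.030 to 0.064 FPKM, so these values stand for single or very few fragments in each library but control 1, and no difference was detectable at this depth (limma adjusted p = 0.696 without a filter). Gata3 was thus higher with triclocarban in libraries where Cdx2 was listed at 0.

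Ordered by mean level per length, the 10 genes with triclocarban ran Yap1, Gata3, Tfap2c, Tead2, Wwtr1, Lats2, Tead1, Tead4, Amotl2 and Cdx2. In controls they ran Yap1, Tfap2c, Wwtr1, Tead4, Tead2, Tead1, Lats2, Gata3, Cdx2 and Amotl2. With triclocarban, the library ranges of Yap1 and Gata3, and of Tfap2c and Tead2, were apart, and those of all other neighbours overlapped. In controls, the ranges of Yap1 and Tfap2c, of Tfap2c and Wwtr1, and of Gata3 and Cdx2 were apart, and those of the other neighbours overlapped. Gata3 stood second with triclocarban and eighth in controls.

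**Figure D3:**
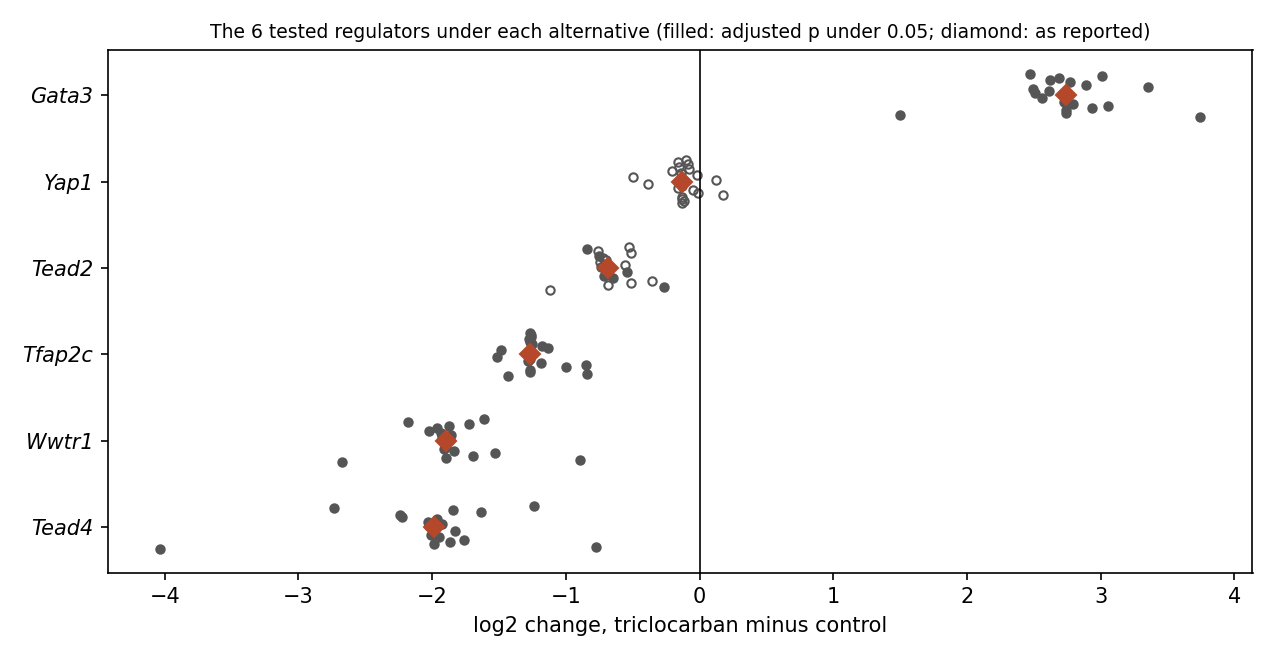
Log2 change, triclocarban minus control, of the 6 tested genes. The diamond is the value as reported and the circles the values under the alternatives in processing and with libraries left out; filled circles have an adjusted p under 0.05. Gata3 stays between 1.503 and 3.75, Wwtr1 between -2.68 and -0.90, Tfap2c between -1.51 and -0.84 and Tead4 between -4.04 and -0.77, all filled, while Tead2 is often open and Yap1 open throughout. Wwtr1 and Tead4 passed the filter through the controls alone, so their filled circles are no independent support.

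The rest of the pathway was read from lists that hold none of the 10 genes. Of the 33 genes of the Hippo kinase cascade and its upstream regulators, 27 were tested, of which 8 were lower, 0 higher and 19 did not pass the threshold, with a median log2 change of -0.17. The median was -0.41 without triclocarban library 2 and -0.08 without triclocarban library 1. The share of lower genes was close to the 30.8% among all genes tested, and under median-of-ratios scaling the higher genes numbered 4 and the lower 6. Under that scaling the higher genes of all numbered 2637, against 1466 as reported. Ajuba, a LIM protein that restrains LATS kinases, averaged 0.66 ± 0.30 FPKM with triclocarban and 8.59 ± 2.56 FPKM in controls (SD, n = 4 each), which is a change in log2 of -2.50 (limma adjusted p = 7.61e-05). Ajuba, like Amot and Frmd6 of this list, reached 1 FPKM in the 4 controls alone, so it had to differ to be tested. Nf2, which encodes Merlin, an activator of the cascade, averaged 9.28 ± 4.76 FPKM with triclocarban and 46.7 ± 9.69 FPKM in controls (log2 change -2.35). Strn3, a subunit of the phosphatase complex that opposes the MST kinases, averaged 2.89 ± 1.10 FPKM with triclocarban and 18.8 ± 10.1 FPKM in controls (log2 change -2.24). The lower genes thus included both activators and inhibitors of the cascade. The core kinase genes Stk3, Stk4 and Lats1 and the scaffold gene Sav1 did not pass the threshold, with changes of 0.56, -0.43, -0.29 and -0.15.

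Of 13 genes for partners of YAP and TEAD, 10 were tested, of which 2 were higher and 0 lower, with a median of 0.48. Among all genes tested, 11.3% were higher and 30.8% lower, and with 10 genes the counts are no result about this list. The count of higher genes in the list was 4 under median-of-ratios scaling and 5 without controls 1 and 2. The higher genes of all also rose there, from 1466 to 2637 and to 2838. The count was 1 without triclocarban library 1, 3 or 4 and without control 3 or 4. The count was also 1 without controls 3 and 4 together, where the median was 0.19 and 695 genes of all were higher. It was 3 without control 1, and without triclocarban library 2 the median was 0.32 and 1 gene was lower. Ywhae, a 14-3-3 protein of the family that retains phosphorylated YAP1 in the cytoplasm, averaged 347 ± 49.99 FPKM with triclocarban and 142 ± 47.2 FPKM in controls (SD, n = 4 each), which is a change in log2 of 1.34 (limma adjusted p = 0.00329). Vgll1, a TEAD cofactor that competes with YAP1, averaged 9.83 ± 3.51 FPKM with triclocarban and 4.26 ± 2.67 FPKM in controls (log2 change 1.13, limma adjusted p = 0.0406). Vgll1 missed the threshold in 7 of 21 alternatives, among them the fits without triclocarban library 1, 3 or 4 and without control 3 or 4. Without controls 3 and 4 together its change was 0.46 (limma adjusted p = 0.370). The other 5 genes of the 14-3-3 family did not pass the threshold.

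Of 20 genes of a YAP and TEAD target signature defined in other cells, 4 were tested and 16 were below the filter, including the commonly used targets Ccn1, Ccn2 and Ankrd1, none above 0.66 FPKM. Gadd45a, a stress-responsive growth arrest gene, averaged 4.31 ± 1.28 FPKM with triclocarban and 19.9 ± 7.02 FPKM in controls (SD, n = 4 each), which is a change in log2 of -1.95 (limma adjusted p = 0.000466). Asap1, Dock5 and Tgfb2 did not pass the threshold, although under median-of-ratios scaling 1 gene of the list was higher.

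Of 27 other trophectoderm genes, 15 were tested, of which 4 were lower, 0 higher and 11 did not pass the threshold, with a median of -0.36. The share of lower genes was close to the 30.8% of all genes tested. The median was -0.22 without triclocarban library 3, -0.21 without control 2 and -0.10 without controls 1 and 2. With quantile normalization 3 were higher and 3 lower, and the higher genes of all rose from 1466 to 2803. Cldn6, a claudin of tight junctions, averaged 6.07 ± 3.43 FPKM with triclocarban and 57.0 ± 9.95 FPKM in controls (SD, n = 4 each), which is a change in log2 of -3.21 (limma adjusted p = 0.000174). Klf5, a Krüppel-like factor needed for trophectoderm in the mouse, had 0.98 to 1.61 FPKM with triclocarban and 10.5 to 22.3 FPKM in controls (log2 change -2.81). Slc2a3, a glucose transporter gene, changed by -1.39. Eomes, Elf5 and Hand1, factors of later trophoblast, and the keratin gene Krt8 were below the filter.

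Of 22 genes for apical and basolateral polarity and actomyosin, which set the Hippo state of outer cells, 20 were tested, of which 1 was higher and 6 lower, with a median of -0.04, against 2 higher and 5 lower under median-of-ratios scaling. The lower share was again close to that of all genes tested. The median was -0.54 without controls 3 and 4, -0.19 without control 3 and -0.17 without control 4, and it was above 0 without triclocarban library 3, control 1 or control 2. Rhoa, a GTPase that drives actomyosin contraction, averaged 33.2 ± 5.68 FPKM with triclocarban and 72.9 ± 12.95 FPKM in controls (SD, n = 4 each), which is a change in log2 of -1.11 (limma adjusted p = 0.0037). Prkcz, an atypical protein kinase C of the apical domain, changed by -1.43 and Crb3, an apical Crumbs protein, by -1.33. The higher gene was Patj, a partner of Crumbs, at 1.08. Its groups overlapped, and no gene of the list was higher without triclocarban library 3 or 4, control 3 or 4, or controls 3 and 4 together. The other kinase gene of the apical complex, Prkci, did not pass the threshold at 0.08. Of 12 inner cell mass genes, 7 were tested, of which 3 were lower and 0 higher, with a median of -0.66. Of all genes tested, 30.8% were lower and 11.3% higher, and with 7 genes the counts are no result about this list. Under median-of-ratios scaling 1 gene of the list was higher. The median was -0.26 without control 4, -0.39 without control 2, -1.135 without control 3 and -0.08 without controls 1 and 2. The lower genes numbered 2 without triclocarban library 1, 3 or 4 or control 2, and 4 without control 3. Fgf4, a growth factor of the inner cell mass, averaged 0.32 ± 0.20 FPKM with triclocarban and 12.3 ± 7.98 FPKM in controls (log2 change -3.11, limma adjusted p = 0.000232). Fgf4 reached 1 FPKM in the 4 controls alone, so it too had to differ to be tested. Klf2 changed by -1.33 and Sox2 by -0.997. Sox2 missed the threshold in 7 of 20 alternatives, among them the fits without triclocarban library 1, 3 or 4 and without control 2.

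**Figure D4:**
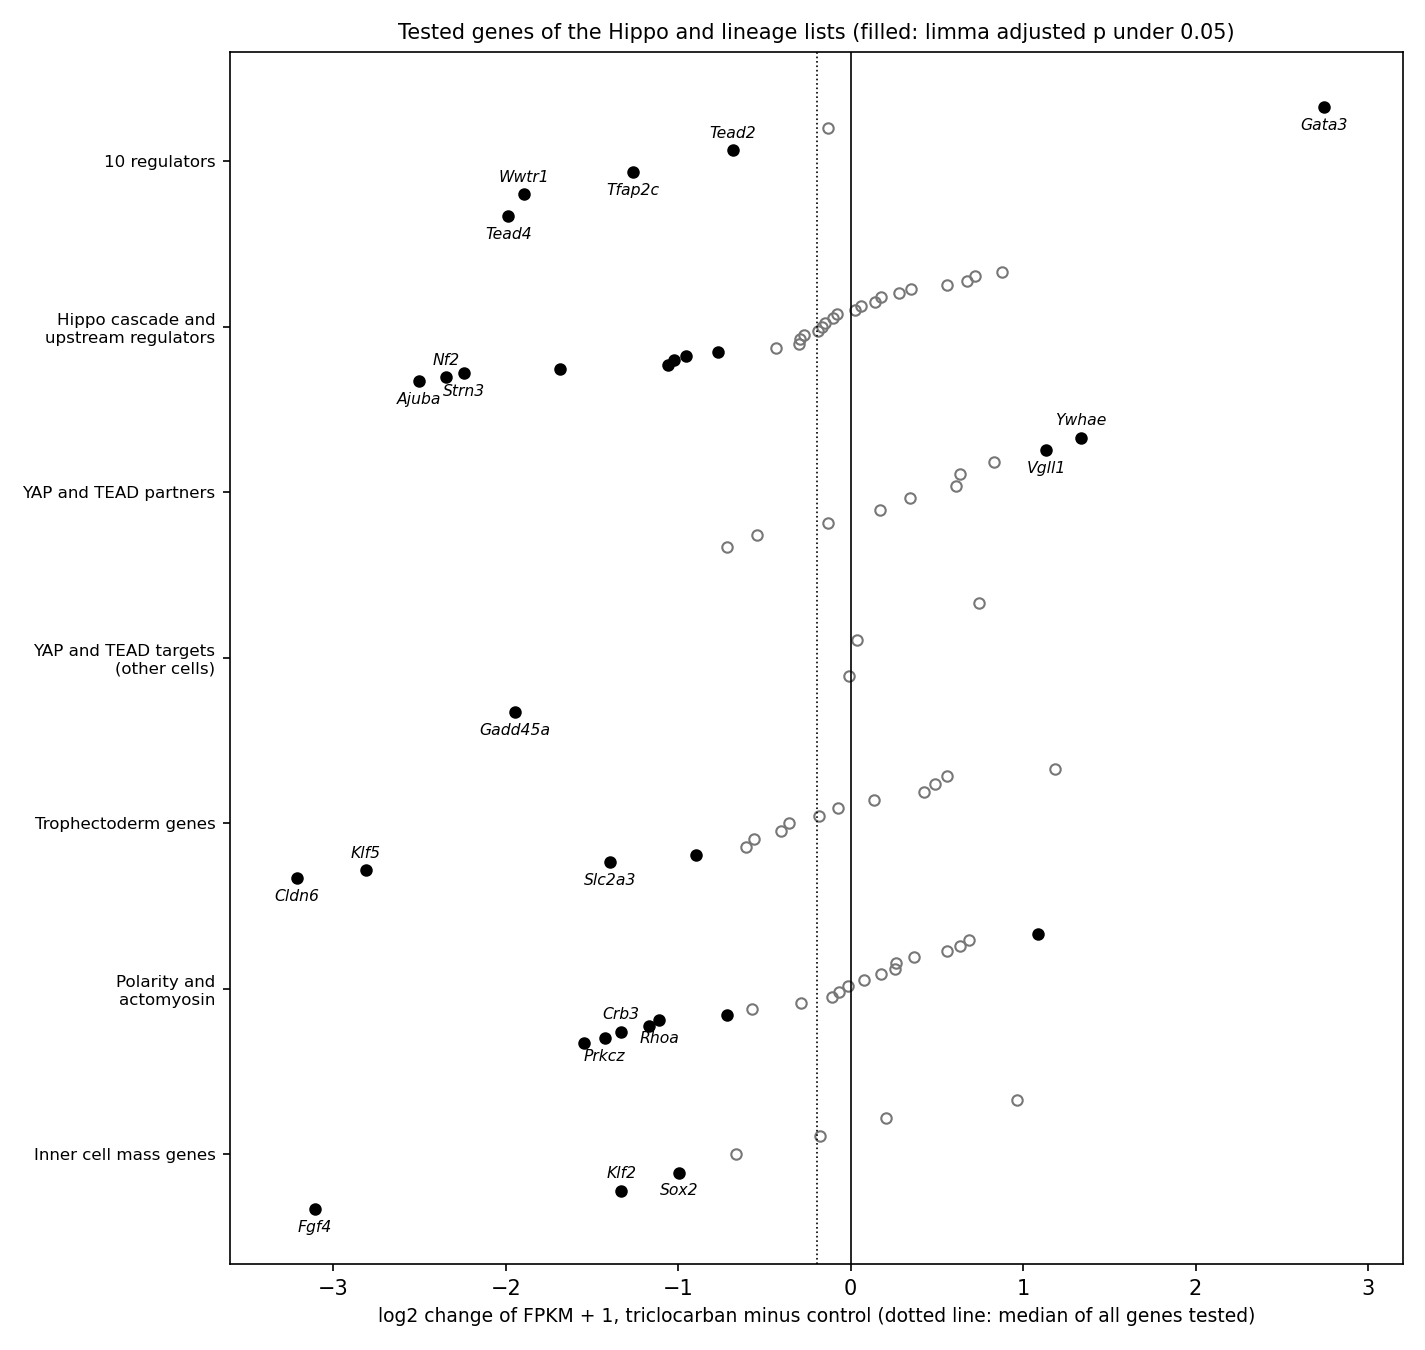
Log2 change of every tested gene of the 10 regulators and of 6 related lists, sorted within each list; filled circles passed the threshold, and the labelled ones are named in the text. The solid line is 0 and the dotted line the median of all genes tested, -0.19. Gata3 is at 2.74, and every list other than the YAP and TEAD partners has filled points on the left.

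Patterns were compared for the member that rose and for Tead4, whose log2 change was the lowest as reported. The change of Wwtr1 was lower than that of Tead4 with a pseudocount of 5, with library weights, without control 3 and without controls 3 and 4. The genes whose pattern over the 8 libraries was most like that of Gata3 were Abcd3, a peroxisomal transporter gene, Rbm48 and Ube2w, with Pearson r of 0.951, 0.945 and 0.936 on the log2(FPKM + 1) scale among 6862 genes with a mean of at least 5 FPKM. Abcd3 had 19.5, 17.4, 18.4 and 13.2 FPKM in triclocarban libraries 1 to 4 and 7.33, 6.49, 4.76 and 4.95 FPKM in controls 1 to 4. For Tead4 they were the ribosomal protein gene Rpl10, Nub1 and the fatty acid elongase gene Elovl6, with r of 0.996, 0.995 and 0.9945. Elovl6 had 0.38 to 0.63 FPKM with triclocarban and 3.87, 3.68, 25.6 and 18.3 FPKM in controls 1 to 4, and so shared the step between the pairs of controls. These correlations span 2 groups that differ widely, and the median absolute r over the same genes was 0.643 for Gata3 and 0.763 for Tead4.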

How the data were processed

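The deposited values are FPKM made by the authors, in 1 table of 37310 genes with 1 column for each of 8 libraries of polyadenylated RNA; reads were paired and 150 bases long, per the labels' protocols. Per the submitters' processing notes, the tools were DESeq2 1.30.1, featureCounts, STAR and StringTie and the build was mm10; their roles are not stated. Strand setting, gene annotation and multiple-match handling are not given in the sources, so reads of overlapping or antisense genes cannot be told apart. The protocols name both a microgram-scale library kit and a preamplification kit and no molecular identifiers.

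Identifiers were matched without version to GENCODE M21 (GRCm38, the assembly of mm10): 32620 (87.4%) matched. A rough depth was taken from the mode of FPKM times exon length over low genes with 1 isoform: 7.99 to 8.82% of low values lay within 0.02 of a whole number of fragments, so no count test was run. No pair of libraries was identical. The 12941 genes with 1 FPKM or more in 4 or more libraries were tested with limma 3.58.1 (lmFit, eBayes with trend, 6 residual degrees of freedom) in R 4.3.3 on log2(FPKM + 1), fitting treatment alone, and p-values were adjusted by Benjamini-Hochberg over all of them. The 2 within-library ratios were compared by exact two-sided permutation over 70 assignments. The limma step was tested on simulated data. Other steps ran in Python 3.11.15 with scipy 1.17.1. Same-numbered libraries were not treated as pairs.

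The members and the lists were chosen with earlier results of these data known. All 10 members are named. Of each other list the text names the 3 genes with the smallest adjusted p among those past the threshold, and other genes it names were chosen after their values were seen. The 3 genes most like a member were taken among non-members with a mean of at least 5 FPKM, without predicted genes and pseudogenes. Alternatives were pseudocounts of 0.1 and 5, no filter or a mean of at least 5 FPKM, 4 other scalings, library weights, a replicate block, an untrended eBayes fit, and the omission of each library in turn. The omission of controls 1 and 2, or of 3 and 4, was chosen after the principal components were seen.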

Additional observations from a re-analysis of the deposited data

Results flagged for a closer look

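A sample lay far from the other 3 of its group in 7 of 54 groups of 4 libraries examined for the genes named and the within-library ratios, where chance flags about 1 in 20 groups. In each case the gap to the next library took up most of the range of the group. Among the members, Cdx2 was highest in triclocarban library 4 at 0.08 FPKM and in control 1 at 0.18 FPKM, and Amotl2 in triclocarban library 1 at 0.14 FPKM, all at or near the worth of a few fragments. With triclocarban, the other 3 libraries were at 0 for Cdx2 and for Amotl2, so any value above 0 was flagged. Tead2 was highest in control 3 at 3.48 FPKM, where the other controls had 1.66 to 1.89 FPKM, and without control 3 its fall missed the threshold. Of the other named genes, Fgf4 was highest in triclocarban library 4 at 0.61 FPKM, Slc2a3 in control 3 at 6.82 FPKM and Sox2 in triclocarban library 2 at 1.84 FPKM.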

How the results depend on the processing

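Over the 21 alternatives (20 for genes that a stricter filter removes), Gata3, Wwtr1, Tead4 and Tfap2c kept their direction and their side of the threshold. Tead2 kept its direction and lost the threshold in 13 of 20. Yap1 never passed, and its change of -0.13 turned to 0.17 with median-of-ratios scaling and 0.13 without triclocarban library 1, and leaving out 1 library gave -0.49 to 0.13. The numbers of higher and lower members were 1 and 3 or 4 throughout, except 1 and 1 with a mean of at least 5 FPKM, which removes the low genes. Of all genes, 1466 were higher, against 2637 with median-of-ratios scaling, 2803 with quantile normalization, 2838 without controls 1 and 2, and 695 without controls 3 and 4. Leaving out 1 library gave 953 (without control 4; 971 without control 3) to 1860 higher genes. Lower genes numbered 3981, and 2487 with a mean of at least 5 FPKM. The median change of all genes moved from -0.19 to 0.06 with median-of-ratios scaling and 0.13 with quantile normalization. Same-numbered libraries did not qualify as pairs, for which a correlation of at least 0.1 was asked. Their deviations correlated at 0.338, 0.053, 0.0949 and 0.104 for numbers 1 to 4. Triclocarban libraries 1, 3 and 4 correlated best with the control of their own number, and triclocarban library 2 with control 4. A pairing is therefore not excluded. With the replicate block, 1 member was higher and 4 lower, as without it, and 1544 genes were higher and 4061 lower in all. As 4 same-numbered pairs, the Wwtr1 to Yap1 ratio differed by -1.77 and the Tead4 share by -40.2 points, p = 0.125 for both by exact sign flips, the lowest 4 pairs allow. Without controls 1 and 2 the ratio differed by -2.02 and the share by -49.4 points, and without controls 3 and 4 by -1.51 and -31.0 points, p = 0.0667 for all by exact permutation, the lowest attainable there. Other causes of these shifts were not tested. Because Wwtr1 and Tead4 passed the filter through the 4 controls alone, their limma p-values are no independent support. The same holds for the p-values of the ratio and of the share. Depth limits statements on Cdx2 and Amotl2; Lats2 and Tead1 were left out by the filter and varied between libraries.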
